A study of Mus musculus with 2 samples.

Results

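The endoplasmic reticulum (ER) chaperone and folding genes were 36 genes chosen by symbol, all of which were found among the 55357 features counted in both libraries. They were sorted by role into 17 luminal chaperone and folding genes, 8 genes of ER-associated degradation (ERAD) and 6 genes of protein translocation and maturation. The rest were 3 sensor genes and 2 cytosolic or other genes. The sensor group held Atf6 and Ern1, which encode sensors, and Xbp1, which encodes a transcription factor. The cells came from tumours that RM-1, a prostate cancer line of the mouse with the genotype label WT, had formed under the skin of C57BL/6 mice. They were collected on day 10 after treatment with RP-6306, an inhibitor of the kinase PKMYT1, or with vehicle. Single-cell 3′ RNA-seq gave 1 library for RP-6306 and 1 library for vehicle, and the submitters name 2 mice, so an effect of treatment and a difference between animals or libraries cannot be told apart. No p-value is given for this reason, and every interval is a 95% interval that covers counting error only.

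The RP-6306 library held 10512 cell barcodes and 106465655 unique molecular identifiers (UMIs), and the vehicle library held 9686 barcodes and 100815022 UMIs. After filters on genes per cell, mitochondrial share and doublet score, 9500 RP-6306 cells and 8856 vehicle cells were kept, and 34 barcodes occurred in both libraries. Cells were placed in classes by counts of detected marker genes. The tumour gate held 7885 RP-6306 cells and 7535 vehicle cells, the macrophage gate 365 and 339, the fibroblast gate 99 and 76, the endothelial gate 26 and 34, and the dendritic gate 25 and 16. Median depth was 9672 UMIs in RP-6306 and 9760 UMIs in vehicle tumour cells, and 4229 UMIs in RP-6306 and 4481 UMIs in vehicle macrophages. The tumour gate carried Krt8 at 758 CPM (UMIs of a gene per 1000000 UMIs of its class) in RP-6306 and 1003 CPM in vehicle, while the epithelial gene Cdh1 was near 0, at 0.152 CPM in RP-6306 and 0.0839 CPM in vehicle. Tumour cells also held UMIs of the 11 fibroblast markers, which summed to 922 CPM in RP-6306 and 833 CPM in vehicle, so the fibroblast gate needed 6 of the 11.

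Proteins that enter the secretory pathway cross the ER membrane through the Sec61 channel, lose their signal peptide, receive sugars and fold with the help of chaperones and disulfide isomerases in the ER lumen. Chains that fail to fold are drawn back to the cytosol and degraded by ERAD. When unfolded proteins build up, the membrane sensors IRE1 (encoded by Ern1), ATF6 and PERK start the unfolded protein response, in which cleaved ATF6 and spliced XBP1 bind elements in the promoters of chaperone and ERAD genes.

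One such element, the ER stress response element, consists of CCAAT and CCACG separated by 9 bases, and it can lie on either strand, where it reads CGTGG, 9 bases and ATTGG. RefSeq promoters (GRCm38.p6, 250 bases before to 50 bases after the annotated start) were listed for 29 of the 36 genes. The element was present with every fixed letter in 10 of these 29 genes, against 37 of all 27025 genes with a listed promoter (0.137%) and 39 of 32851 promoter entries (0.119%). The 10 genes were Hspa5, Hsp90b1, Creld2, Pdia6, Calr, Canx, Dnajc3, Ero1b, Syvn1 and Derl3, of which 8 are luminal and 2 belong to ERAD. Hsp90b1 held 2 copies, on opposite strands. The copies of 8 of these genes are shown because the comparisons below turn on them, each with 5 bases on either side, read in the direction of the gene, with the element in capitals.
Hspa5 (chr2:34772020-34772048, plus strand): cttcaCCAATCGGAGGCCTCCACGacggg
Hsp90b1, nearer copy (chr10:86705528-86705556, minus strand): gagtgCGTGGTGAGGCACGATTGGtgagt
Hsp90b1, farther copy (chr10:86705633-86705661, minus strand): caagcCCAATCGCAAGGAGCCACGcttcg
Creld2 (chr15:88819515-88819543, plus strand): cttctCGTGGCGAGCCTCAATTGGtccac
Pdia6 (chr12:17266486-17266514, plus strand): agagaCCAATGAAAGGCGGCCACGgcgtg
Calr (chr8:84847070-84847098, minus strand): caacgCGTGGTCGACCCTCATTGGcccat
Canx (chr11:50325795-50325823, minus strand): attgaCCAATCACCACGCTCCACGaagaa
Dnajc3 (chr14:118937822-118937850, plus strand): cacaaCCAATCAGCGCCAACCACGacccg
Derl3 (chr10:75893237-75893265, plus strand): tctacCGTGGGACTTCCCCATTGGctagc

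The copies began between 44 bases (Syvn1) and 212 bases (the farther Hsp90b1 copy) before the annotated start. Sdf2l1, the luminal gene with the largest ratio in tumour cells among those at 50 CPM or more, had no exact copy. Its closest stretch differed at 2 of the 10 fixed letters, and 15.5% of all promoters hold a stretch at least that close. Pdia4 and Pdia3 each held a stretch that differed at 1 fixed letter, as did Sel1l and Derl2, and 1.32% of all promoters hold one at least that close. These stretches are shown for contrast, with all 19 aligned bases in capitals.
Sdf2l1 (chr16:17132400-17132428, minus strand): gaacgCGCGCGCGCAGACGATTGGctgcc
Pdia4 (chr6:47813597-47813625, minus strand): aaccgAGTGGCAGCCCGTGATTGGtggtc
Pdia3 (chr2:121413868-121413896, plus strand): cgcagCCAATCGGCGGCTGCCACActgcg

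A second form, ATTGG and CCACG separated by 1 base, was present in Herpud1 and Dnajb11, against 12 of 32851 promoters (0.0365%). Its first part is the reverse complement of CCAAT, so the elements share letters but not order. The Herpud1 copy began 52 bases before the start, and the Dnajb11 copy lay after the start and is not shown. The core TGACGTG, bound by XBP1 and ATF6, was present in Hspa5 and Txndc5, against 2.01% of all promoters.
Herpud1 (chr8:94386372-94386392, plus strand): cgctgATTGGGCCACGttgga
Hspa5, TGACGTG core (chr2:34771928-34771944, plus strand): agcaaTGACGTGagttg

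Luminal chaperones and folding enzymes stood higher in RP-6306 than in vehicle tumour cells, and Sdf2l1, Creld2 and Manf were among the genes with the largest ratios among all genes at 50 CPM or more. Summed over the 17 luminal genes, the level was 7916 CPM in RP-6306 and 6435 CPM in vehicle, a ratio of 1.23 (1.23 to 1.23, 679164 and 536633 UMIs). The 6 translocation and maturation genes summed to 1834 CPM in RP-6306 and 1548 CPM in vehicle, a ratio of 1.19 (1.18 to 1.19). The 8 ERAD genes summed to 791 CPM in RP-6306 and 690.0 CPM in vehicle, a ratio of 1.15 (1.13 to 1.16). The luminal ratio was the highest of the 3 summed ratios. Their intervals cover counting error only, so they do not measure how far the groups differ beyond the spread between genes or animals.

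Single genes were compared by the log2 ratio of CPM + 1 in RP-6306 over vehicle, and a gene was called at 0.25 or more in either direction. All 36 genes had the required 100 UMIs over both libraries in tumour cells. Of these, 18 were called higher and 0 lower, against a background of 4.99% called higher and 6.49% called lower among 13761 genes. By role, 10 of 17 luminal genes, 5 of 8 ERAD genes, 3 of 6 translocation and maturation genes, 0 of 3 sensor genes and 0 of 2 other genes were called higher. The median log2 ratio was 0.34 for luminal genes, 0.26 for ERAD genes and 0.25 for translocation and maturation genes, beside -0.02 for all genes. At a log2 ratio of 0.5 or more, 5 of the 36 remained, namely Manf, Sdf2l1, Creld2, Ero1b and Derl3. The share of all genes at this threshold was not computed. Ero1b stood at only 4.45 CPM in RP-6306 and 2.16 CPM in vehicle, and Derl3 at 1.98 CPM in RP-6306 and 0.444 CPM in vehicle.

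**Figure D1:**
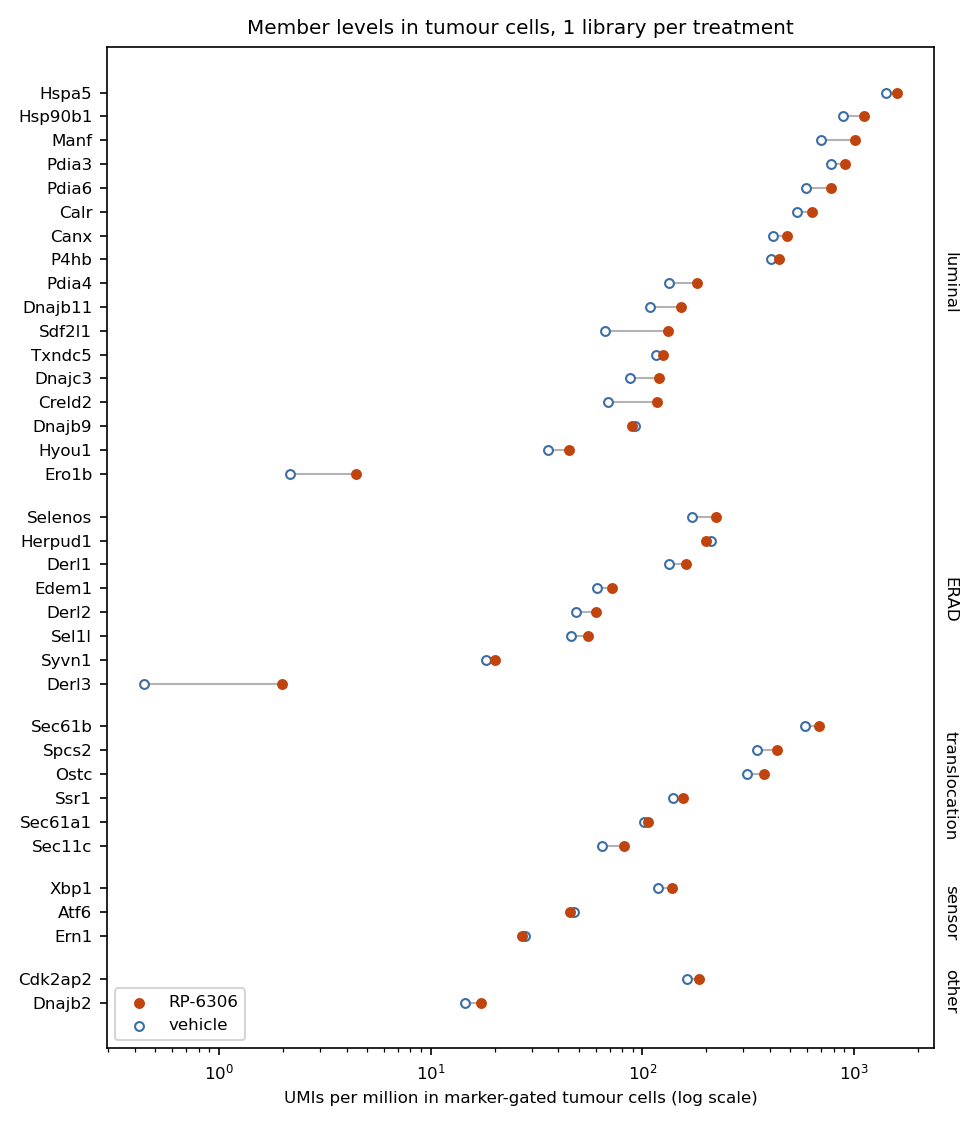
Level of each of the 36 genes in gated tumour cells, in CPM on a log axis, grouped by role, with a filled point for the RP-6306 library and an open point for the vehicle library. The filled point lies to the right for 32 genes, with the widest gaps on this axis for Derl3, Ero1b, Sdf2l1 and Creld2, and to the left for Dnajb9, Herpud1, Atf6 and Ern1.

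Among the Hsp70 and Hsp90 chaperones of the lumen, Hspa5 encodes BiP, the Hsp70 that binds nascent chains and holds the stress sensors inactive. Hspa5 stood at 1589.8 CPM in RP-6306 tumour cells and 1415 CPM in vehicle tumour cells, a ratio of 1.12 (1.11 to 1.13), below the 0.25 threshold at a log2 ratio of 0.17. Hsp90b1 encodes GRP94, the ER form of Hsp90, and stood at 1115 CPM in RP-6306 and 883 CPM in vehicle, a ratio of 1.26 (1.25 to 1.27). Hyou1, the large Hsp70-like partner of BiP, stood at 44.9 CPM in RP-6306 and 35.8 CPM in vehicle, a ratio of 1.25 (1.20 to 1.32), and its call ended in cells low in G2/M genes. BiP itself thus had the smallest ratio of these 3 chaperone genes.

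The BiP cofactors of the DnaJ family differed among themselves. Dnajb11, which encodes ERdj3 and delivers unfolded chains to BiP, stood at 153 CPM in RP-6306 and 109 CPM in vehicle, a ratio of 1.40 (1.37 to 1.44). Dnajc3, which encodes P58IPK, stood at 119 CPM in RP-6306 and 87.1 CPM in vehicle, a ratio of 1.37 (1.33 to 1.41). Dnajb9, which encodes ERdj4 and is a target of XBP1, stood at 89.6 CPM in RP-6306 and 92.1 CPM in vehicle. Its ratio of 0.973 (0.942 to 1.004) was the only luminal ratio below 1 in tumour cells.

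At 50 CPM or more, the largest luminal ratios belonged to soluble proteins that are known as targets of the unfolded protein response. Sdf2l1, a partner of ERdj3 that keeps clients soluble, stood at 132 CPM in RP-6306 and 66.3 CPM in vehicle, a ratio of 1.99 (1.92 to 2.05). It ranked 2 by log2 ratio among the 3133 genes at 50 CPM or more. Creld2, a disulfide isomerase-like protein, stood at 117 CPM in RP-6306 and 68.7 CPM in vehicle, a ratio of 1.70 (1.65 to 1.76), and ranked 8. Manf, a secreted cofactor of BiP, stood at 1010.1 CPM in RP-6306 and 700.4 CPM in vehicle, a ratio of 1.44 (1.43 to 1.46), and ranked 13. Ranks 21, 25 and 27 were held by Dnajb11, Dnajc3 and Pdia4, so 6 luminal genes stood among the first 27 of 3133.

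Protein disulfide isomerases and lectin chaperones showed smaller ratios, all above 1. Pdia4 (ERp72) stood at 180.2 CPM in RP-6306 and 133 CPM in vehicle, a ratio of 1.36. Pdia6 stood at 775 CPM in RP-6306 and 591 CPM in vehicle, a ratio of 1.31. Pdia3 (ERp57), which works with the lectin chaperones, stood at 904 CPM in RP-6306 and 779.8 CPM in vehicle, a ratio of 1.16. Calr and Canx, the lectin chaperones calreticulin and calnexin, had ratios of 1.18 (634 CPM in RP-6306, 539 CPM in vehicle) and 1.16 (480.1 CPM in RP-6306, 412 CPM in vehicle). P4hb, the founding disulfide isomerase and a subunit of collagen prolyl hydroxylase, stood at 442 CPM in RP-6306 and 404 CPM in vehicle, a ratio of 1.09. Txndc5, another thioredoxin-domain isomerase, stood at 126 CPM in RP-6306 and 115 CPM in vehicle, also a ratio of 1.09. Ero1b, an oxidase that recharges disulfide isomerases, had a ratio of 2.06 (1.72 to 2.48), but from 382 UMIs in RP-6306 and 180 UMIs in vehicle. The related oxidase gene Ero1a, outside the 36 and named after its value was seen, was far more abundant and lower in RP-6306. It stood at 109 CPM in RP-6306 and 130 CPM in vehicle, a ratio of 0.843 (0.820 to 0.867), and was not called. Of the members in this paragraph, Pdia4, Pdia6 and Ero1b were called, and the other 5 were not.

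ERAD genes differed among themselves. Selenos, a selenoprotein of the retrotranslocation complex, stood at 222 CPM in RP-6306 and 171 CPM in vehicle, a ratio of 1.30 (1.27 to 1.33). Derl1 and Derl2, the Derlin membrane proteins, had ratios of 1.20 (159.9 CPM in RP-6306, 134 CPM in vehicle) and 1.25 (60.6 CPM in RP-6306, 48.6 CPM in vehicle). Sel1l, the scaffold of the Hrd1 ligase, stood at 55.2 CPM in RP-6306 and 45.8 CPM in vehicle, a ratio of 1.21. These 4 were called higher, together with Derl3, which had 170 UMIs in RP-6306 and 37 UMIs in vehicle over all tumour cells, a ratio of 4.47 (3.11 to 6.56). Of these calls, those of Derl1 and Sel1l ended with the mean of per-cell CPM and in cells low in G2/M genes, those of Derl1 and Derl2 ended at 2000 UMIs per cell, and that of Sel1l ended with no doublet removal. Edem1, a lectin that hands misfolded glycoproteins to ERAD, stood at 71.8 CPM in RP-6306 and 61.2 CPM in vehicle, a ratio of 1.17, and was not called. Syvn1, the Hrd1 ligase itself, stood at 20.1 CPM in RP-6306 and 18.3 CPM in vehicle. Herpud1, an ERAD adaptor and a target of both ATF6 and PERK signalling, stood at 199.6 CPM in RP-6306 and 212 CPM in vehicle, a ratio of 0.943 (0.924 to 0.964). Herpud1 was the only ERAD gene with a ratio below 1 in tumour cells.

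All 6 translocation and maturation genes had ratios above 1. Sec61b and Sec61a1 encode subunits of the translocation channel. Sec61b stood at 683 CPM in RP-6306 and 584 CPM in vehicle, a ratio of 1.17, and Sec61a1 at 106 CPM in RP-6306 and 102 CPM in vehicle, a ratio of 1.05. The signal peptidase subunits were called higher, Sec11c not in cells low in G2/M genes alone. Spcs2 stood at 432 CPM in RP-6306 and 346 CPM in vehicle, a ratio of 1.25, and Sec11c at 81.8 CPM in RP-6306 and 64.6 CPM in vehicle, a ratio of 1.27. Ostc, a subunit of oligosaccharyltransferase, was also called, at 375 CPM in RP-6306 and 312 CPM in vehicle, a ratio of 1.20, but not in cells low in G2/M genes alone. Ssr1, a subunit of the translocon-associated protein complex, stood at 156 CPM in RP-6306 and 139 CPM in vehicle, a ratio of 1.12.

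In the sensor group, Atf6 and Ern1 showed little difference, while Xbp1 was higher in RP-6306 but not called. Xbp1 stood at 138 CPM in RP-6306 and 119 CPM in vehicle, a ratio of 1.16 (1.13 to 1.19), and 3′ counts do not separate its spliced from its unspliced form. Atf6 stood at 45.5 CPM in RP-6306 and 47.5 CPM in vehicle, and Ern1 at 26.9 CPM in RP-6306 and 27.8 CPM in vehicle. The intervals of their ratios, 0.958 (0.916 to 1.001) and 0.966 (0.911 to 1.02), held 1. Outside the ER, Cdk2ap2, which encodes a cyclin-dependent kinase 2-associated protein, stood at 184 CPM in RP-6306 and 162 CPM in vehicle. The cytosolic cochaperone Dnajb2 stood at 17.3 CPM in RP-6306 and 14.5 CPM in vehicle. Syvn1, Atf6, Ern1 and Dnajb2, all under 50 CPM and not called, are given to complete their roles.

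Summed by list, the other genes of the pathway showed smaller differences. The counts below stand beside 4.99% called higher and 6.49% called lower among all genes in tumour cells. Of 25 other luminal folding genes, 5 were called higher and 0 lower, with a median log2 ratio of 0.05. The collagen chaperone Serpinh1 stood at 1501 CPM in RP-6306 and 1182 CPM in vehicle, and the peptidyl-prolyl isomerases Fkbp11 and Ppic at 136 and 187 CPM in RP-6306, against 102 and 155 CPM in vehicle. The remaining calls, Fkbp14 and Nucb2, lay under 50 CPM and are named after their values were seen. Of 11 oligosaccharyltransferase genes, 2 were called higher, Magt1 (89.2 CPM in RP-6306, 66.7 CPM in vehicle) and Rpn1 (155 CPM in RP-6306, 125 CPM in vehicle). Of 14 other ERAD genes, only Ubxn4 was called, and of 18 other translocation genes only Sec61g was called. None of 9 other lectin cycle genes was called, the largest size of difference at 50 CPM or more being that of Erlec1 (44.3 CPM in RP-6306, 51.6 CPM in vehicle).

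Genes of the PERK branch were divided, with 5 of 9 higher and 4 lower in RP-6306. The list held 10 genes, but Ddit3 was not read because its symbol did not name exactly 1 feature. None of the 9 was called higher, and 1 was called lower, Chac1, which lay under 50 CPM and is named after its value was seen. Atf4, the transcription factor of this branch, stood at 294 CPM in RP-6306 and 333 CPM in vehicle, while Atf3 stood at 1029 CPM in RP-6306 and 909 CPM in vehicle. None of 6 genes of ATF6 processing and its relatives was called, and their summed ratio of 0.951 lay below 1 while their median log2 ratio was 0.11. Mbtps1, which encodes the first protease that cleaves ATF6, stood at 68.3 CPM in RP-6306 and 80.5 CPM in vehicle. Among 12 cytosolic heat shock genes, 3 were called higher and 1 lower, beside 4.99% and 6.49% of all genes. The higher ones were Hsph1, at 268 CPM in RP-6306 and 149.9 CPM in vehicle, Hspe1 and Hsp90aa1, and the lower one, named after its value was seen, was Hspa1a at 2.23 CPM in RP-6306 and 3.07 CPM in vehicle.

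Genes of the G2/M phase differed in the other direction in tumour cells. All 20 G2/M genes listed were lower in RP-6306, with a summed level of 1602 CPM in RP-6306 and 1992 CPM in vehicle, and the 20 S phase genes summed to 1234 CPM in RP-6306 and 1180.1 CPM in vehicle. Tumour cells were therefore split into 3 strata by these genes, a division chosen after the data had been seen. The luminal ratio was 1.30 (8115 CPM in RP-6306, 6226 CPM in vehicle) in cells over 500 CPM of G2/M genes, and 1.36 in the other cells over 1000 CPM of S phase genes. In the remaining 4452 RP-6306 cells and 4182 vehicle cells it was 1.14 (1.13 to 1.14), at 7559 CPM in RP-6306 and 6649 CPM in vehicle. ERAD genes had ratios of 1.22, 1.28 and 1.06 in the same order of strata. Ratios were above 1 in each stratum for the luminal, ERAD and translocation groups, and lowest for all of them in the cells low in both sets.

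The difference was present in most of the tumour clusters. Of 12 clusters with 50 or more gated tumour cells per library, the luminal ratio was above 1 in 11, with a median of 1.30. The highest ratio, 1.36 (8527 CPM in RP-6306, 6255 CPM in vehicle), was found in cluster 7, which Cdc20 and Cenpa led. In cluster 2, led by Rnd3 and Egr3, the ratio was 1.05 (6846 CPM in RP-6306, 6521 CPM in vehicle). Cluster 6, led by Cryab, Gpnmb and Hmox1, was the exception, at 8899.7 CPM in RP-6306 and 9058 CPM in vehicle, a ratio of 0.983 (0.971 to 0.994). It held the highest luminal level of all clusters in each library. Clusters were formed on the cells of both libraries together, so these values describe the clusters and test nothing.

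**Figure D2:**
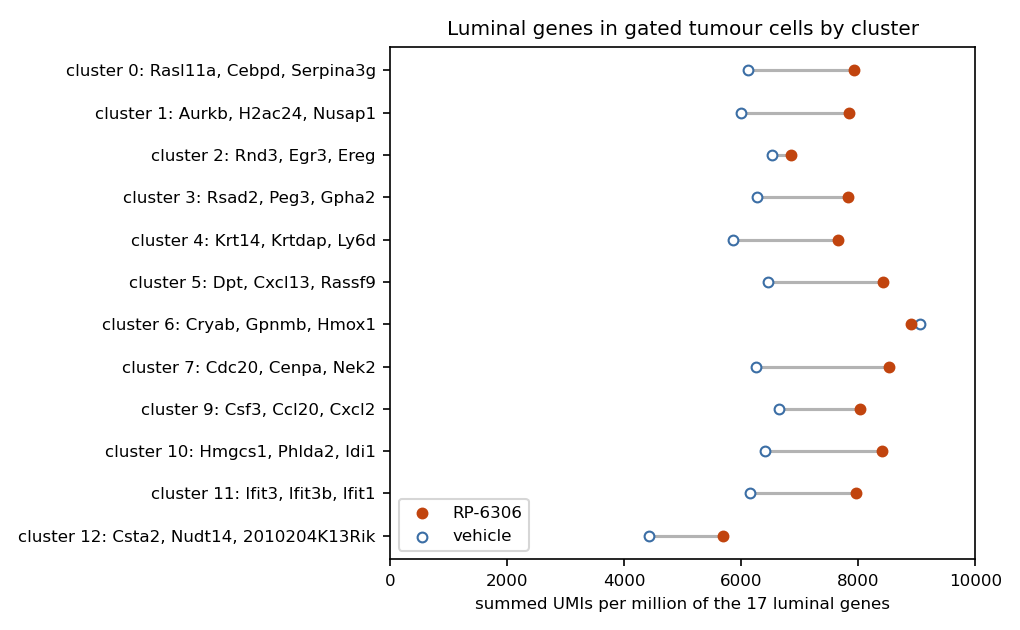
Summed level of the 17 luminal genes, in CPM, in gated tumour cells of each cluster with 50 or more cells per library, with a filled point for RP-6306 and an open point for vehicle and the 3 leading genes beside each cluster number. The filled point lies to the right in 11 of 12 clusters, while in cluster 6 the points stand at 8899.7 CPM for RP-6306 and 9058 CPM for vehicle.

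At the level of single cells, the difference was seen in cells low in luminal UMIs as well as in cells high in them. Tumour cells were thinned to 2000 UMIs each, which 7774 of 7885 RP-6306 cells and 7454 of 7535 vehicle cells reached. The median cell then held 15 luminal UMIs in RP-6306 and 12 in vehicle. The 25th percentile was 11 UMIs in RP-6306 and 9 in vehicle, and the 90th percentile was 24 UMIs in RP-6306 and 20 in vehicle. Macrophages had medians of 15 luminal UMIs in RP-6306 and 11 in vehicle, and a 90th percentile of 23 in RP-6306 and 19 in vehicle. A Sdf2l1 UMI was found in 19.9% of thinned RP-6306 tumour cells (19.0% to 20.8%, exact binomial) and 12.2% of thinned vehicle tumour cells (11.5% to 13.0%). In thinned macrophages the shares were 55.1% in RP-6306 and 38.0% in vehicle. Without thinning, the shares were 57.0% of RP-6306 and 42.3% of vehicle tumour cells, and 72.3% of RP-6306 and 59.6% of vehicle macrophages. For Creld2 the thinned shares were 19.5% of RP-6306 and 12.3% of vehicle tumour cells, and 23.8% of RP-6306 and 9.03% of vehicle macrophages. Every class of cells expresses these genes, so no class can serve as a measure of free RNA for them.

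**Figure D3:**
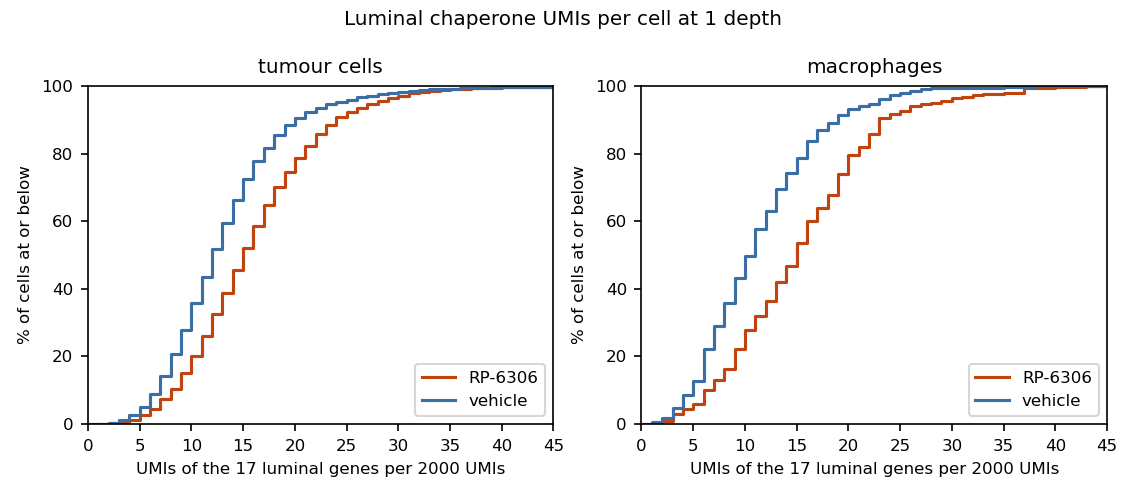
Cumulative share of cells, in percent, against the number of UMIs of the 17 luminal genes in a cell thinned to 2000 UMIs, for tumour cells (left) and macrophages (right), with 1 step line per library. The RP-6306 line lies to the right of the vehicle line over the body of both distributions, with medians of 15 and 12 UMIs in tumour cells and 15 and 11 UMIs in macrophages.

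Many luminal genes, but not all to a like degree, were higher in tumour cells that held more UMIs of the other luminal genes. Tumour cells thinned to 5000 UMIs (7069 in RP-6306, 6762 in vehicle) were ranked by the summed UMIs of the luminal genes, leaving out the gene in question, and cut into 5 groups of equal size, of which the top group was set against the bottom group. Manf was 2.44 times as high in the top group in RP-6306 (1457 against 596 CPM) and 2.28 times in vehicle (1093 against 479 CPM). Calr, Pdia4 and Hyou1 had ratios of 2.33, 2.37 and 2.44 in RP-6306 and 2.26, 2.04 and 2.46 in vehicle. Sdf2l1 had the widest range of the genes over 20 CPM, at 4.65 times in RP-6306 (238 against 51.2 CPM) and 2.91 times in vehicle (119 against 40.8 CPM), and Creld2 had 3.53 times in RP-6306 and 2.32 times in vehicle. Other luminal genes differed less between the groups of cells. Txndc5 had 1.43 times in RP-6306 and 1.16 times in vehicle, P4hb 1.40 times in RP-6306 and 1.53 times in vehicle, Canx 1.39 times in RP-6306 and 1.65 times in vehicle, and Pdia3 1.60 times in RP-6306 and 1.49 times in vehicle. Dnajb9 had the smaller ratio in RP-6306, with 1.64 times in RP-6306 and 2.45 times in vehicle.

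Genes outside the lumen overlapped with the luminal genes in this measure. The ERAD genes Selenos and Herpud1 were 1.83 and 1.82 times as high in the top group in RP-6306, and 2.05 and 1.58 times in vehicle, and Edem1 was 1.88 times as high in RP-6306 and 1.76 times in vehicle. Sec61b was 1.50 times as high in RP-6306 and 1.43 times in vehicle, and Xbp1 was 1.68 times as high in RP-6306 and 1.70 times in vehicle. Atf6 was equal in both groups of cells in RP-6306 and 1.29 times as high in vehicle, and Ern1 had 0.921 times in RP-6306 and 1.01 times in vehicle. Atf4 had 0.972 times in RP-6306 and 1.18 times in vehicle, and the cytosolic Hsp70 gene Hspa8 had 1.002 times in RP-6306 and 1.02 times in vehicle. Within the sensor group, Xbp1 thus varied most with the chaperones in both libraries, but it encodes a transcription factor and not a membrane sensor.

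**Figure D4:**
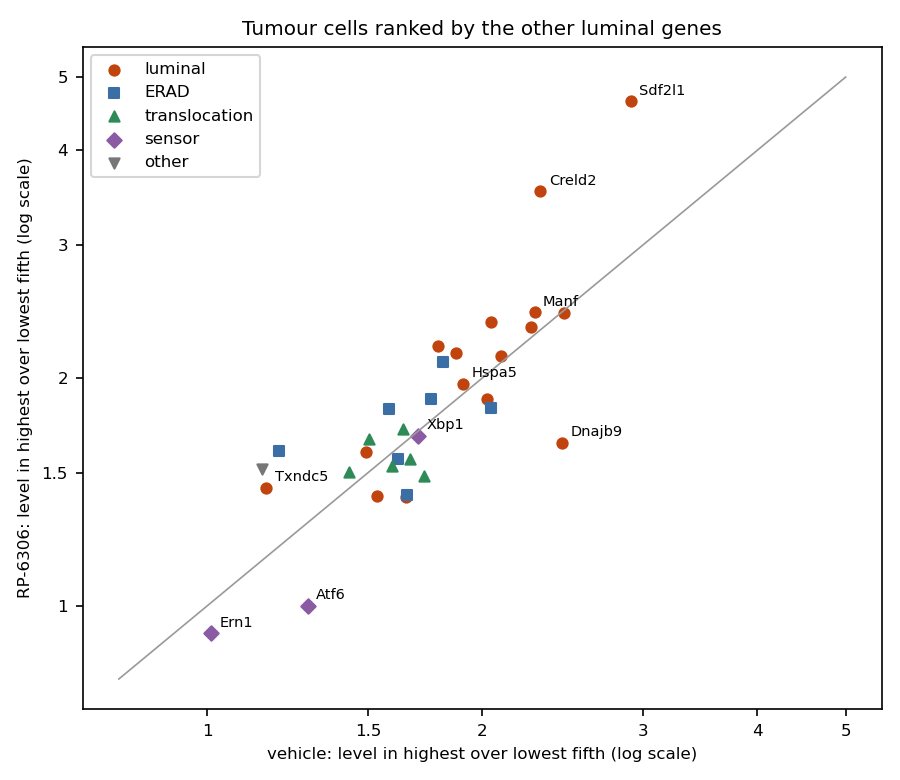
For each gene over 20 CPM, the level in the top of 5 equal groups of tumour cells, ranked by the other luminal genes, over the level in the bottom group, in RP-6306 (vertical, log scale) and vehicle (horizontal, log scale), with 1 symbol per role and the line of equality. Sdf2l1 (4.65 and 2.91) and Creld2 (3.53 and 2.32) lie farthest above the line, Dnajb9 (1.64 and 2.45) lies below it, and Ern1 lies near 1 on both axes.

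As a description, Pearson's r across cells between each gene and the luminal sum without that gene was computed for 2915 genes at 50 CPM or more. The cells of a library share its depth and preparation, and r is damped by sparse counts. Manf had the highest r in each library, 0.48 in RP-6306 and 0.47 in vehicle, followed by Hspa5 (0.44 in RP-6306, 0.45 in vehicle) and Calr (0.42 in RP-6306, 0.45 in vehicle), while Txndc5, the lowest of the luminal genes tested, had 0.086 in RP-6306 and 0.026 in vehicle, and 90% of genes lay below 0.04 in RP-6306 and 0.05 in vehicle. By mean rank over the libraries, 15 of the first 20 genes and 24 of the first 50 were among the 36. Members under 50 CPM in either library could not rank, and even all 36 would be a small part of the 2915 ranked genes. The genes outside the 36 with the highest mean rank were Serp1 (r of 0.22 in RP-6306, 0.29 in vehicle), Serpinh1 (0.21 in RP-6306, 0.25 in vehicle) and Ssr3 (0.19 in RP-6306, 0.26 in vehicle).

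Macrophages showed a luminal difference of similar direction. Their luminal genes summed to 8116 CPM in RP-6306 and 5946 CPM in vehicle, a ratio of 1.36 (1.33 to 1.40, 14251 and 10396 UMIs). Of 31 genes with 100 or more UMIs, 16 were called higher and 0 lower, against a background of 14% called higher and 14.5% called lower among 4727 genes. Of the 16 luminal genes with enough UMIs, 13 were called, against 2 of 6 ERAD genes and 1 of 6 translocation and maturation genes. Creld2 had the largest ratio, 2.51 (1.99 to 3.20), at 145 CPM in RP-6306 and 57.8 CPM in vehicle. It was followed by Hyou1 at 1.80 (76.3 CPM in RP-6306, 42.3 CPM in vehicle) and Dnajb11 at 1.68 (255 CPM in RP-6306, 152 CPM in vehicle). Manf, Sdf2l1 and Hsp90b1 had ratios of 1.63, 1.57 and 1.49, the last from 1235 CPM in RP-6306 and 830.5 CPM in vehicle. Hspa5 stood at 1415 CPM in RP-6306 and 1066 CPM in vehicle, a ratio of 1.33 (1.25 to 1.41) against 1.12 in tumour cells. The ERAD sum was 798 CPM in RP-6306 and 742 CPM in vehicle, and the interval of its ratio, 1.08 (0.997 to 1.16), held 1.

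UMIs of tumour markers were present in the macrophage gate in both libraries. The 8 tumour markers summed to 194 CPM in RP-6306 and 319 CPM in vehicle macrophages, with 6 and 7 of 8 detected, against 1750.1 CPM and 2031 CPM in tumour cells, and their part in the macrophage values was not tested. Cdh1 was higher in this gate than in tumour cells, at 24.5 CPM in RP-6306 and 41.8 CPM in vehicle macrophages. G2/M genes summed to 1239 CPM in RP-6306 and 1014 CPM in vehicle macrophages, higher in RP-6306, unlike in tumour cells.

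Fibroblasts and endothelial cells, with far fewer cells, had the largest luminal ratios. In fibroblasts the luminal sum was 10347 CPM in RP-6306 and 6684 CPM in vehicle, a ratio of 1.55 (1.49 to 1.60). In endothelial cells it was 8919 CPM in RP-6306 and 5517 CPM in vehicle, a ratio of 1.62 (1.52 to 1.71). Sdf2l1 and Creld2 led in fibroblasts, with ratios of 3.63 (209 CPM in RP-6306, 57.6 CPM in vehicle) and 3.55 (178 CPM in RP-6306, 50.1 CPM in vehicle), before Hyou1 (2.35), Manf (2.22), Sel1l (2.08) and Edem1 (1.88). In endothelial cells Sdf2l1 had a ratio of 3.21 (266 CPM in RP-6306, 82.7 CPM in vehicle, 91 and 27 UMIs), before Dnajb11 (2.45), Creld2 (2.30), Derl2 (2.22), Selenos (2.16) and Manf (2.07). Hspa5 stood at 2376 CPM in RP-6306 and 1398 CPM in vehicle fibroblasts, and P4hb at 508 CPM in RP-6306 and 531 CPM in vehicle.

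These gates held tumour-marker UMIs and differed in cycling genes between the libraries. Tumour markers summed to 814 CPM in RP-6306 and 1068 CPM in vehicle fibroblasts, and to 919.9 CPM in RP-6306 and 475 CPM in vehicle endothelial cells. Cdh1 was at 0 in both gates. G2/M genes in fibroblasts summed to 1699 CPM in RP-6306 and 829.7 CPM in vehicle. The 10 endothelial markers summed to 4801 CPM in RP-6306 and 8976 CPM in vehicle endothelial cells, and the 4 erythroid markers to 491 CPM in RP-6306 and 91.9 CPM in vehicle. The 12 cytosolic heat shock genes differed there by nearly as much as the luminal genes, at 11939 CPM in RP-6306 and 7876 CPM in vehicle, a ratio of 1.52 (1.44 to 1.59), and in fibroblasts by less, a ratio of 1.22 (1.19 to 1.26). The part of these differences in the luminal ratios was not tested.

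**Figure D5:**
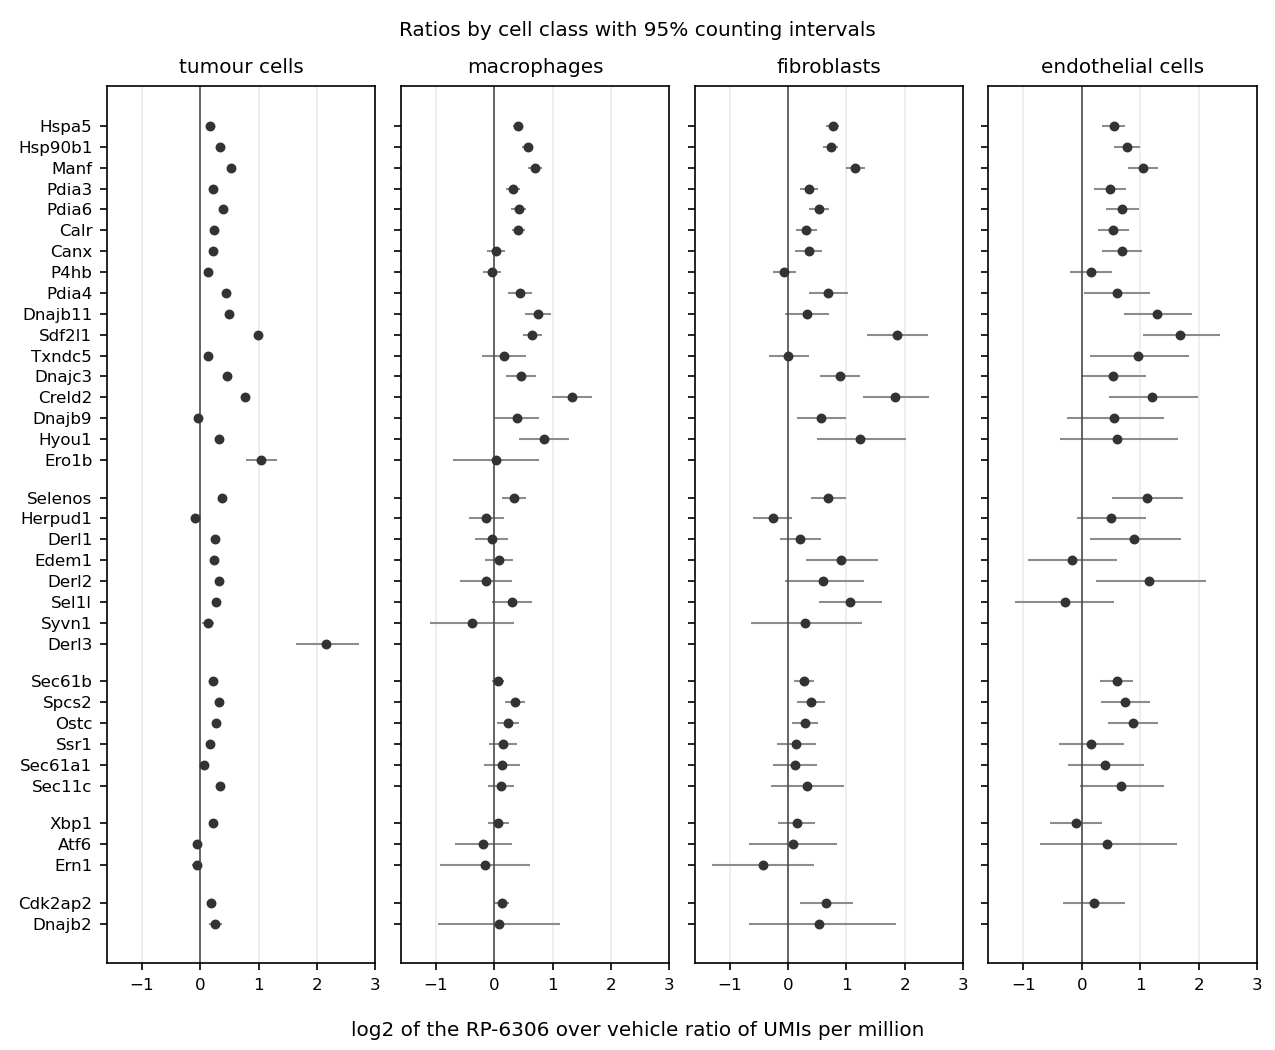
Log2 of the RP-6306 over vehicle ratio of CPM, without a pseudocount, for each gene with 20 or more UMIs in a class, in tumour cells, macrophages, fibroblasts and endothelial cells, with 95% conditional intervals for counting error. Points lie right of 0 for most luminal and translocation genes in all 4 panels, and the ERAD genes scatter to both sides outside tumour cells.

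Across tumour cells, macrophages, fibroblasts and endothelial cells, 31 of the 36 genes had 20 or more UMIs in each class. Of these, 22 were higher in RP-6306 in all 4 classes, 0 were lower in all 4, and 9 were mixed. The share of all genes higher in all 4 classes was not computed. Among all genes with 100 or more UMIs in a class, 43.6% were higher in tumour cells and 47.2% in macrophages. The shares were 52.3% in fibroblasts and 54.4% in endothelial cells. The 22 of the 36 genes comprised 14 of 16 luminal genes, all but P4hb and Dnajb9, all 6 translocation and maturation genes, 1 of 6 ERAD genes (Selenos) and Cdk2ap2. Herpud1, Sel1l, Edem1, Derl1 and Derl2 were higher in some classes and lower in others, as were Xbp1 and Atf6. The classes come from the same 2 libraries, so their shared direction is not independent evidence.

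Dendritic cells, at 25 RP-6306 and 16 vehicle cells, were the only class with a lower luminal sum in RP-6306, 3099 CPM in RP-6306 and 4370.5 CPM in vehicle, a ratio of 0.709 (0.609 to 0.825, 318 and 387 UMIs). The genes with 20 or more UMIs whose interval left out 1 were Xbp1 (39.0 CPM in RP-6306, 203 CPM in vehicle), Ostc (48.7 CPM in RP-6306, 215 CPM in vehicle), Hspa5 (429 CPM in RP-6306, 1152 CPM in vehicle), Spcs2 and Manf. The 14 dendritic markers summed to 5311 CPM in RP-6306 and 3659 CPM in vehicle. Of these markers, 13 were detected in each library, and they are not given singly. Cluster 17, led by Dnase1l3 and Wdfy4, held 10 RP-6306 and 6 vehicle cells, of which 15 lay in this gate. Whether the make-up of the gate differed between the libraries, and its part in the values, was not tested.

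The level of a few genes depended more on the class than on the library. No gene was at least 2 times as high in its leading class as in the next in both libraries. Sdf2l1 came closest, with macrophages at 1.81 times the next class in RP-6306 and 1.80 times in vehicle. Cdk2ap2 stood at 639.5 CPM in RP-6306 and 586 CPM in vehicle macrophages, 2.52 times the next class in RP-6306 and 1.44 times in vehicle. Sdf2l1 was 3.65 times as high in macrophages (481 CPM) as in tumour cells in RP-6306, and 4.61 times in vehicle (305 CPM). Xbp1 was 2.31 times as high in macrophages as in tumour cells in RP-6306 (319 CPM) and 2.55 times in vehicle (304 CPM). Edem1 had macrophage over tumour ratios of 2.30 in RP-6306 and 2.55 in vehicle, and Sec11c of 2.55 in RP-6306 and 2.96 in vehicle. Herpud1 was lower in macrophages, at 0.528 times the tumour level in RP-6306 and 0.546 times in vehicle. The class contrast of Sdf2l1 in either library was thus wider than its difference between the libraries in tumour cells.

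Set beside the promoter elements, the 12 genes with either form of the ER stress response element had a median log2 ratio of 0.36 in tumour cells, and 7 of them were called higher. The 17 genes with a listed promoter and neither form had a median of 0.23, and 6 were called higher. The 7 genes with no listed promoter had a median of 0.27, and 5 were called higher. Among all genes, 4.99% were called higher. Derl3 (1.05) and Ero1b (0.79), the highest with an element, rest on few UMIs. The ranges overlapped, since Herpud1, with the second form, was lowest of all 36 at -0.08, and Sdf2l1, with neither, stood at 0.98. Canx and Calr, with an exact copy, had ratios of 1.16 and 1.18, and Hspa5, with both an element copy and a TGACGTG core, had 1.12. Among the 37 genes outside the 36 with either form, 14 had 100 or more UMIs in tumour cells. Their median log2 ratio was 0.07, and 3 were called higher and 0 lower, beside 4.99% and 6.49% of all genes. These 3, named after their values were seen, were Alg12, Lgalsl and Zfp57.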

How the data were processed

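Raw UMI counts per gene and cell were deposited as 10x matrices, made by the authors with Cell Ranger. The file headers name version 7.1.0, and the submitters' processing notes name version 2.1.1 and the build mm10. The sources used here do not say whether introns were counted. Gene names matched GENCODE M21 for 52081 of 55357 features. Cells with at least 500 genes and at most 15% mitochondrial UMIs were kept. Scrublet's automatic threshold called 1 RP-6306 and 0 vehicle doublets and had not worked, so the highest 8% of scores were removed (808 and 684 cells). Classes were gated per cell by markers (tumour 2 of 8, macrophage 4 of 12, dendritic 3 of 14, fibroblast 6 of 11, endothelial 5 of 10), with thresholds set after seeing the data, so the classes are rebuilt and not the authors'. Just inside the tumour gate lay 1266 RP-6306 and 1022 vehicle cells, and just outside 652 and 485. Within a class, the counts of each library were added up and scaled to all UMIs of that class (CPM), and ratios carry exact conditional intervals, sums exact Poisson intervals. Log2 ratios use CPM + 1. Calls need 100 UMIs over both libraries. The intervals were run on simulated counts that held counting error only, with no spread between cells or animals, so this run cannot judge such spread. Named in tumour cells were all genes at 50 CPM or more and all calls, in other classes the members whose interval left out 1 (at most 6, largest first), and in other pathway lists at most 3 at 50 CPM or more. Clusters used scanpy 1.11.5 and leidenalg 0.10.2, TMM factors edgeR 4.0.16. 3′ counts are not scaled by length, so levels are compared within a gene. The genes, lists and tests were chosen with earlier results of these data known. Protein sequences were not used here.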

Additional observations from a re-analysis of the deposited data

Results flagged for a closer look

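These genes had a log2 ratio of 0.25 or more in tumour cells and one of -0.25 or less in another class. The difference between classes was not tested. In dendritic cells the log2 ratio was -1.21 for Manf, -0.66 for Sdf2l1, -0.56 for Pdia6, -0.53 for Selenos, -0.79 for Sec11c, -1.39 for Spcs2 and -2.12 for Ostc. For Manf, Spcs2 and Ostc the 95% interval of the dendritic ratio left out 1, and for the other 4 it held 1. These values rest on 5 to 23 UMIs per gene in 25 RP-6306 cells and 15 to 46 UMIs per gene in 16 vehicle cells. In this gate the summed level of the 14 dendritic markers also differed between the libraries, and its part in these values was not tested. In endothelial cells the log2 ratio was -0.29 for Sel1l, from 24 UMIs in RP-6306 and 28 UMIs in vehicle, with an interval that held 1.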

How the results depend on the processing

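The luminal ratio in tumour cells, 1.23, stayed above 1 in every setting run: 1.25 with TMM scaling, 1.24 without mitochondrial and ribosomal protein genes in the totals, 1.21 as the mean of per-cell CPM, 1.23 with no doublet removal, 1.23 with classes from clusters, 1.20 at 2000 UMIs per cell, 1.23 without the 1% of cells highest in luminal genes, 1.18 in cells low in G2/M genes, and 1.28 without Hspa5, Hsp90b1 and Manf (chosen after seeing the data). The ERAD ratio, 1.15, was 1.17 with TMM scaling, 1.11 at 2000 UMIs and 1.10 in cells low in G2/M genes. The translocation ratio, 1.19, was 1.21 with TMM scaling, 1.17 as the mean of per-cell CPM and 1.16 in cells low in G2/M genes. The macrophage luminal ratio, 1.36, was 1.32 with no doublet removal and 1.33 with classes from clusters. The causes of these shifts were not tested. Of 18 genes called higher in tumour cells, 5 passed a log2 ratio of 0.5, a threshold at which the share of all genes was not computed. In cells low in G2/M genes, 13 stayed called, while Derl1, Hyou1, Ostc, Sec11c and Sel1l were lost. Derl1 and Sel1l were also lost with the mean of per-cell CPM, Derl1 and Derl2 at 2000 UMIs per cell, and Sel1l with no doublet removal. TMM scaling lost none and added Calr, Dnajb2, Edem1 and Sec61b. Over 11 settings, 2 of 396 single-gene values changed sign in tumour cells (Ern1, Syvn1) and 34 of 396 in macrophages. Of called genes, Sel1l in macrophages reversed, with a log2 ratio of -0.037 at 2000 UMIs against 0.30 otherwise. No paired analysis was possible because each treatment has 1 library. Depth limits the dendritic and endothelial values, and Derl3 and Ero1b everywhere.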

Other observations

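Cells that met no gate, 1043 in RP-6306 and 824 in vehicle, also had a higher luminal sum in RP-6306, 7989 CPM in RP-6306 and 6112 CPM in vehicle, a ratio of 1.31 (1.29 to 1.33). T cells, at 39 RP-6306 and 25 vehicle cells, summed to 4481 CPM in RP-6306 and 3378 CPM in vehicle, a ratio of 1.33 (1.12 to 1.58).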
